A study of Mus musculus with 8 samples.

Results

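The genes described here are Il10, which encodes the secreted cytokine IL-10, and 9 genes for membrane proteins that restrain immune cells. These are the coinhibitory receptor genes Lag3, Ctla4, Pdcd1, Tigit, Havcr2, Btla, Cd160 and Cd244a, and Cd200, which encodes a ligand. They were chosen by name and not by a measured value, although earlier results of these data were known. All 10 were found in the table of 52636 genes, and all 10 were among the 17261 genes that passed a filter on low counts. The RNA came from mixed immune cells of mouse spleens and lymph nodes. Per the labels, the cells were taken between day 35 and day 55 from mice without signs of disease and cultured for 4 days. The medium held anti-CD3 at 1 µg/ml, an antibody that triggers the T cell receptor, with IL-23 at 20 ng/ml, TGF-β at 4 ng/ml, IL-6 at 20 ng/ml and IL-12 at 3 ng/ml, which the labels call a TH1/TH17 stimulation. All groups received the same culture.

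The 8 columns of the table fall into 4 labelled groups of 2, which are TCR1640 males, TCR1640 females, SJL/J males and SJL/J females. TCR1640 mice carry a T cell receptor transgene against a myelin protein, and SJL/J is the wild-type strain. The question stated by the study is how males and females differ within each strain. Nothing in the labels says that the 2 columns of a group came from separate mice or flasks. Their counts differed by little more than sampling noise, with a chi-square over its degrees of freedom of 1.04 to 1.06 inside a group and of 2.67 to 13.7 across groups. The 2 columns were therefore summed and counted as 1 sample, so each group has n = 1, and a ratio between 2 groups carries a counting interval but no test. Column totals ran from 3765291 to 5116467 counts. The strand setting of the counting is not known, and with a wrong setting the counts of most members would come from off-strand reads. Tsix, the gene opposite to Xist, had 3553 to 3935 counts in female columns, where Xist had 668 to 784. In male columns Tsix had 0 to 1. In 985 pairs of a coding gene and a noncoding feature on opposite strands, with at least 200 counts each, the noncoding one had more counts in 75.7%. The part of the strand setting in the values was not tested.

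The strain labels could not be taken at face value. The alpha joining segment Traj43 held 2.91% of joining segment counts in TCR1640 males and 5.04% in TCR1640 females, against 79.2% in SJL/J males and 75.6% in SJL/J females. The beta variable segment Trbv2 held 20.6% of variable segment counts in TCR1640 males and 19.7% in TCR1640 females, against 63.1% in SJL/J males and 58.3% in SJL/J females. A receptor transgene gives most T cells the same segments, and the dominant segments stood in the libraries labelled SJL/J. Strain differences are therefore given by label throughout, and TCR1640 or SJL/J names the label of a library. The sex labels were not contradicted, since the Y-linked gene Eif2s3y had 0 counts in the 4 female columns and 87 to 124 in the 4 male columns.

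IL-10 is a cytokine through which T cells, B cells and myeloid cells limit inflammation, and helper T cells of the kinds driven by IL-6, IL-12 or TGF-β can make it. The coinhibitory receptors appear on T cells after activation and dampen signals from the T cell receptor or from the costimulator CD28. Many of them can be expressed together with Il10 on repeatedly or strongly stimulated T cells, under regulators such as Prdm1 and Maf.

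The promoters of the 5 genes that were called lower under the TCR1640 label over both sexes are shown first, as the members called in the same direction. The windows reach from 250 bases before to 50 bases after the annotated start, come from RefSeq on GRCm38.p6 and read 5′ to 3′ along the gene. An entry was found for 8 of the 10 genes. None was found for Il10 and Lag3, the 2 members called higher under the TCR1640 label, so their windows could not be compared. Capitals mark matches on either strand to GGAAA, the core bound by NFAT, or to TGANTCA, the AP-1 motif, where N is any base. NFAT and AP-1 are factors switched on by T cell receptor signals. TTCNNNGAA, the STAT motif, was searched too.
Ctla4: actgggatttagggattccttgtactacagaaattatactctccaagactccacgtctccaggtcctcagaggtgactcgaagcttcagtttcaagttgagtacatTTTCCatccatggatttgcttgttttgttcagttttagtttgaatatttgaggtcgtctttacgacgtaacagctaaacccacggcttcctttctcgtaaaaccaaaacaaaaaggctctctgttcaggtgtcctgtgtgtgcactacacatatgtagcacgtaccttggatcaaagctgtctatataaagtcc
Pdcd1: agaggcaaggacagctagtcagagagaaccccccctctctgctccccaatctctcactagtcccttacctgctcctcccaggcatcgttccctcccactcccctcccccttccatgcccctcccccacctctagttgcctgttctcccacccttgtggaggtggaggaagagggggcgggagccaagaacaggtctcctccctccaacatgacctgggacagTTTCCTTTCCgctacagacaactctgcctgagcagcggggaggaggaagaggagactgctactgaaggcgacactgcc
Tigit: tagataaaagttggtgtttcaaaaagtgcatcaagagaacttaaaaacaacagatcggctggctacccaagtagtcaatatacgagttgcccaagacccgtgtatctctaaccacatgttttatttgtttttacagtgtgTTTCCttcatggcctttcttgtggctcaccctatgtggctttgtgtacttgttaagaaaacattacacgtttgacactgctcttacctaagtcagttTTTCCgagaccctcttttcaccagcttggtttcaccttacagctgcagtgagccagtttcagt
Havcr2: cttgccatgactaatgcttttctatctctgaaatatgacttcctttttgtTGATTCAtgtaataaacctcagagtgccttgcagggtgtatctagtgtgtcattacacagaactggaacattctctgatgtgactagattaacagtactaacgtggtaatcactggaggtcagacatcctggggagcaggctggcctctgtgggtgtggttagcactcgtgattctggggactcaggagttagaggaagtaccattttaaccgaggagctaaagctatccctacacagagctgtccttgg
Cd200: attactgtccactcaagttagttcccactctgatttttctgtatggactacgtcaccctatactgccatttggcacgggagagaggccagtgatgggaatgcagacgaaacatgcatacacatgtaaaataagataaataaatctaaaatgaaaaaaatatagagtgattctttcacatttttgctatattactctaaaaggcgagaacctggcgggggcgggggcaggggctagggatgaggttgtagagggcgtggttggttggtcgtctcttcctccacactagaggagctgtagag

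The Ctla4 window lies at chr1:60908775-60909074 on the plus strand and holds 1 GGAAA match, which begins 144 bases before the start. In Pdcd1, at chr1:94052504-94052803 on the minus strand, 2 adjoining GGAAA matches begin 28 and 23 bases before it. Tigit, at chr16:43664135-43664434 on the minus strand, has 2 of them, at 110 and 13 bases before the start. The Havcr2 window at chr11:46454681-46454980 on the plus strand has no GGAAA but 1 TGANTCA match, 200 bases before the start. Cd200, at chr16:45409004-45409303 on the minus strand, has no match to any of the 3 motifs. The 5 windows thus share no motif among those searched. GGAAA occurs in 61.3% of 32851 such promoters, TGANTCA in 7.81% and TTCNNNGAA in 8.3%, so 3 windows of 5 with GGAAA is close to the share among all promoters. No matches overlapped.

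Between the strain labels the 10 genes split. Il10 and Lag3 rose in the TCR1640-labelled libraries, and Ctla4, Cd200, Pdcd1, Tigit and Havcr2 fell, in an edgeR quasi-likelihood fit of the 4 summed samples with sex and strain label as terms. Btla, Cd160 and Cd244a did not pass. In this fit 26.5% of all tested genes were called, 13.4% higher and 13.1% lower. The 2 higher and 5 lower members stand beside these shares, and their median log2 fold change was -0.22 against 0.01 over all genes tested. The p-values in this fit do not measure the spread between mice, because its 1 residual degree of freedom is the difference of the sex effect between strain labels.

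**Figure D1:**
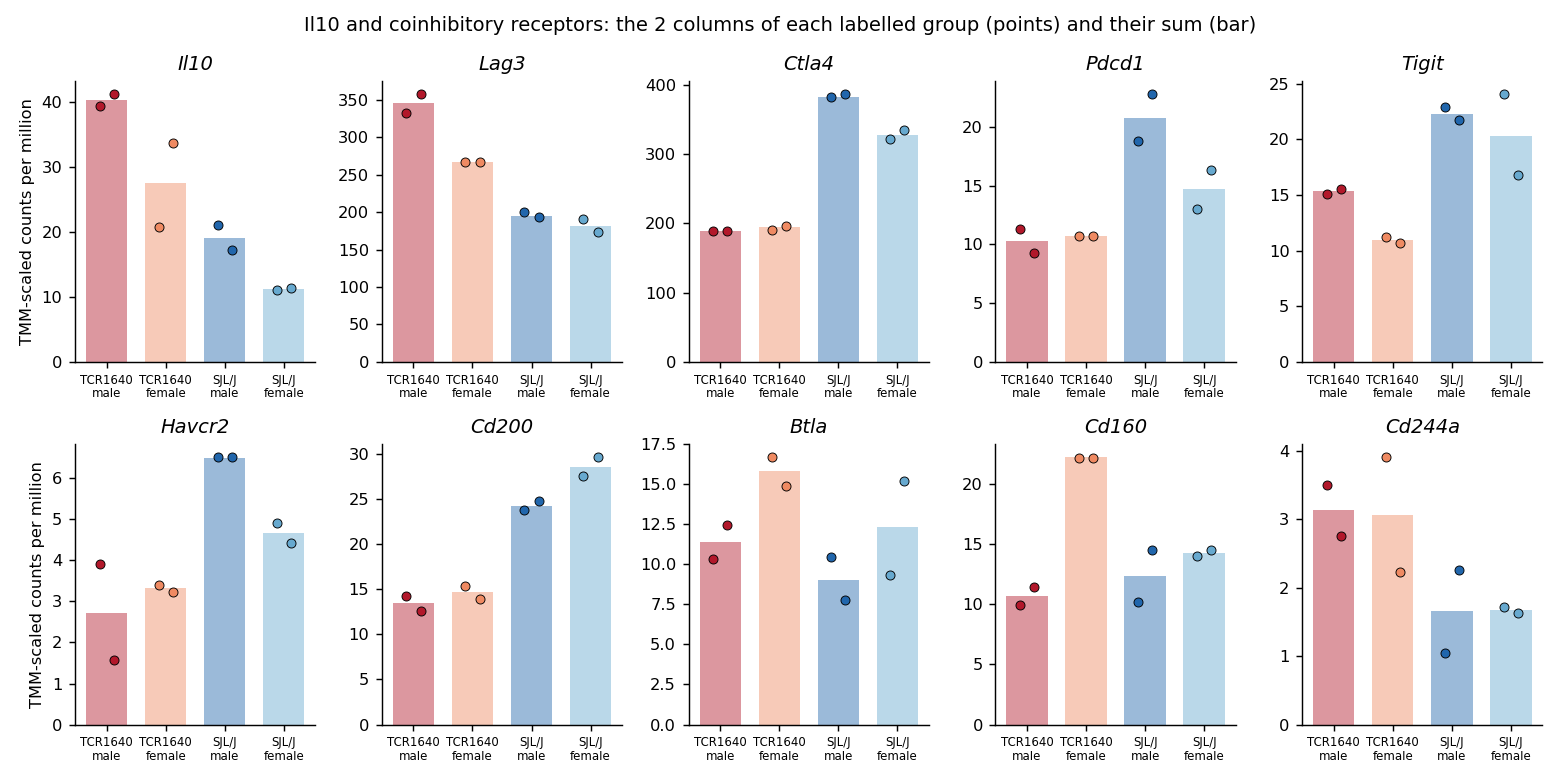
TMM-scaled CPM (vertical axes, separate for each gene) in the 4 labelled groups. Points are the 2 columns of a group and bars their sum, with n = 1 per group. Il10 and Lag3 stand highest in the TCR1640 male bars, and Ctla4, Pdcd1, Havcr2, Tigit and Cd200 stand lower under the TCR1640 label than under the SJL/J label of the same sex.

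Il10 is the secreted arm of the set. Its level, in counts per 1000000 on TMM-scaled library sizes (CPM), was 39.4 and 41.2 in the TCR1640 male columns and 20.8 and 33.8 in the TCR1640 female columns, against 21.1 and 17.3 in the SJL/J male columns and 11.0 and 11.4 in the SJL/J female columns. Within each sex every TCR1640 column exceeded both SJL/J columns, although in the lowest TCR1640 female column Il10 was slightly below the higher SJL/J male column. The log2 ratio of TCR1640 to SJL/J labels was 1.08 in males (exact 95% counting interval 0.81 to 1.36) and 1.30 in females (0.94 to 1.66). These are 2.12-fold and 2.45-fold. Over both sexes the edgeR fit gave a log2 fold change of 1.18 with an SE of 0.17 and an adjusted p of 4.70e-11. In bulk RNA of this kind, a change in the number of cells of a type cannot be told apart from a change in RNA per cell, here and for every gene that follows.

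The 2 TCR1640 female columns of Il10 were not alike. They held 80 and 136 counts, a log2 ratio of 0.70 for column 2 over column 1 (0.29 to 1.11), which is past 1.5-fold with an interval that excludes equality. Between these columns 2.12% of all tested genes were past that limit. Without column 2 the female strain ratio of Il10 was 0.85, so its direction did not depend on that column.

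Lag3 encodes a CD4-like receptor that binds MHC class II and is induced on activated T cells. Its CPM was 332 and 357 in TCR1640 males and 267 in both TCR1640 female columns, against 199.6 and 193 in SJL/J males and 190.2 and 174 in SJL/J females. No TCR1640 column overlapped an SJL/J column. The log2 ratio was 0.82 in males (0.73 to 0.91) and 0.56 in females (0.46 to 0.66). With a log2 fold change of 0.69 (SE 0.12, adjusted p = 1.66e-07, edgeR), Lag3 was the only one of the 9 membrane protein genes that rose in the fit of 4 sums.

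Ctla4 encodes the receptor that competes with CD28 for CD80 and CD86, and it is highly expressed by regulatory T cells as well as by activated T cells. Its CPM was 188 and 189 in TCR1640 males and 190.5 and 196 in TCR1640 females, against 381 and 386 in SJL/J males and 321 and 334 in SJL/J females. The groups of the 2 labels did not overlap, and the 4 TCR1640 columns lay close together. The log2 ratio was -1.02 in males (-1.10 to -0.93) and -0.76 in females (-0.85 to -0.66). The edgeR fit gave -0.89 with an SE of 0.12 and an adjusted p of 4.84e-12.

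Cd200 encodes a membrane ligand, carried by activated T cells among others, that restrains myeloid cells through the CD200 receptor. It had 14.2 and 12.6 CPM in TCR1640 males and 15.4 and 13.9 CPM in TCR1640 females, against 23.7 and 24.8 CPM in SJL/J males and 27.5 and 29.6 CPM in SJL/J females. The labels did not overlap. The log2 ratio was -0.85 in males (-1.18 to -0.52) and -0.96 in females (-1.29 to -0.63), and the edgeR fit gave -0.90 (SE 0.17, adjusted p = 2.29e-06).

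Pdcd1 encodes PD-1, the receptor for PD-L1 and PD-L2. It had 11.3 and 9.27 CPM in TCR1640 males and 10.7 CPM in both TCR1640 female columns, against 18.8 and 22.8 CPM in SJL/J males and 13.0 and 16.3 CPM in SJL/J females. The log2 ratio was -1.01 in males (-1.38 to -0.64) and only -0.46 in females (-0.87 to -0.04), where it stayed within 1.5-fold. The edgeR fit gave -0.75 (SE 0.19, adjusted p = 0.000875).

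Tigit encodes a receptor for the poliovirus receptor CD155 that competes with the activating receptor CD226. Its CPM was 15.1 and 15.6 in TCR1640 males and 11.2 and 10.7 in TCR1640 females, against 22.9 and 21.8 in SJL/J males and 24.1 and 16.8 in SJL/J females. The log2 ratio was -0.54 in males (-0.86 to -0.21), within 1.5-fold, and -0.89 in females (-1.28 to -0.51), past it. The edgeR fit gave -0.70 (SE 0.18, adjusted p = 0.000823).

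Havcr2 encodes TIM-3, a receptor found on IFN-γ-producing T cells and on myeloid cells. It rests on few reads, with 19 and 8 counts in TCR1640 males and 13 in each TCR1640 female column, against 25 and 26 in SJL/J males and 20 and 19 in SJL/J females. On the CPM scale the highest TCR1640 column, at 3.92 CPM, lay below the lowest SJL/J column, at 4.43 CPM, but both held 19 counts. The 2 TCR1640 male columns differed from each other by a log2 ratio of -1.31 (-2.71 to -0.05), past 1.5-fold, as did 2.06% of all tested genes between these columns. The log2 ratio between labels was -1.25 in males (-1.98 to -0.55) and -0.49 in females (-1.26 to 0.26), where the interval includes equality. The edgeR fit gave -0.89 (SE 0.33, adjusted p = 0.0302).

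The calls of Il10, Lag3, Ctla4 and Cd200 were also made by DESeq2, which called 8.17% of all tested genes, while those of Tigit, Pdcd1 and Havcr2 were lost there, with adjusted p-values of 0.197, 0.241 and 0.541. Havcr2 also lost its edgeR call without the second TCR1640 male column (adjusted p = 0.198) and without the first or the second SJL/J male column (0.0712 and 0.0668).

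Btla, Cd160 and Cd244a encode receptors of other ligand systems. BTLA and CD160 bind the TNF receptor family member HVEM, and CD244 binds CD48. Btla had 10.3 and 12.4 CPM in TCR1640 males and 16.7 and 14.9 CPM in TCR1640 females, against 10.4 and 7.76 CPM in SJL/J males and 9.33 and 15.2 CPM in SJL/J females. Its 2 SJL/J female columns differed by a log2 ratio of 0.70 (0.10 to 1.32), past 1.5-fold, where 2.3% of all tested genes did. Its groups overlapped and its edgeR value was 0.35 (SE 0.20, adjusted p = 0.207). Cd160 had 9.90 and 11.4 CPM in TCR1640 males and 22.1 CPM in both TCR1640 female columns, against 10.2 and 14.5 CPM in SJL/J males and 14.0 and 14.5 CPM in SJL/J females. The females of the TCR1640 label thus stood above every other column. Cd244a was the most weakly counted member, with 17 and 14 counts in TCR1640 males and 15 and 9 in TCR1640 females, against 4 and 9 in SJL/J males and 7 in each SJL/J female column. Its edgeR value of 0.89 had an SE of 0.43 and an adjusted p of 0.116 and did not pass. The edgeR fit of the 8 columns as separate libraries, whose p-values compare these libraries and not mice, called 9 of the 10 genes between labels, where 49.5% of 15793 tested genes were called. To the same 7 it added Cd244a (0.88, adjusted p = 0.0279) and Btla (0.35, adjusted p = 0.0419), both higher under the TCR1640 label.

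**Figure D2:**
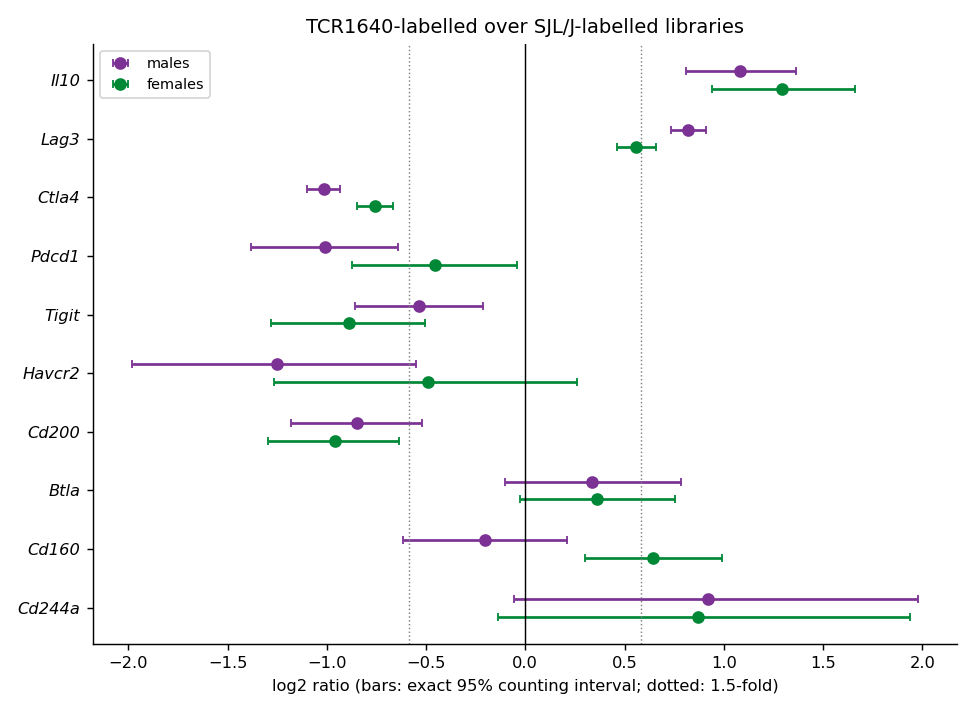
Log2 ratio of TCR1640-labelled over SJL/J-labelled summed counts (horizontal axis) in males and females for each gene. Bars are exact 95% counting intervals and dotted lines mark 1.5-fold. Il10 and Lag3 lie to the right of 0 in both sexes, and Ctla4, Cd200, Pdcd1 and Tigit to the left.

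Counted within each sex, 6 of the 10 genes were past 1.5-fold in males, Il10 and Lag3 higher and Ctla4, Pdcd1, Havcr2 and Cd200 lower, where 24.7% of all tested genes were past it, 12.1% higher and 12.5% lower. In females 5 were past it, Il10 and Cd160 higher and Ctla4, Tigit and Cd200 lower, where 20.6% of all tested genes were, 9.81% higher and 10.8% lower. Lag3 in females was 1.47-fold higher, just inside the limit, and Cd160 was 1.56-fold higher, just outside it. Only Il10 in females and in males, and Ctla4, Pdcd1 and Havcr2 in males, were past 2-fold.

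Some cell type markers also differed between labels, and their part in the results was not tested. The 6 T cell markers were all well counted, with a summed level of 1105 and 998 CPM in TCR1640 males and females, against 1006 and 890.1 CPM in SJL/J males and females, and 3 of them rose and 2 fell. Both CD8 markers, Cd8a and Cd8b1, rose, with a summed level of 284 CPM in TCR1640 males and 272 CPM in TCR1640 females, against 51.1 CPM in SJL/J males and 43.3 CPM in SJL/J females. Of 6 naive T cell markers 5 rose, and their sum was 1093 and 1062 CPM in TCR1640 males and females, against 348 and 349 CPM in SJL/J males and females. Of 6 regulatory T cell markers, Il2ra and Ctla4 itself fell, while Foxp3 had 141 and 144 CPM in TCR1640 males and females, against 168 and 159 CPM in SJL/J males and females, and did not pass (adjusted p = 0.252, edgeR). Il2ra, the IL-2 receptor alpha chain that activated T cells express as well, changed by a log2 fold change of -1.02. Ikzf2, Ikzf4 and Lrrc32 leaned the other way, at 0.43, 0.47 and 0.44, and did not pass. The median of the regulatory T cell list was 0.12, and 3 of its 6 markers overlap an exon on the other strand.

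Markers of other cells differed too. Of 6 NK cell markers 2 passed the filter and both rose, with a summed level of 31.1 and 46.5 CPM in TCR1640 males and females, against 20.7 and 18.2 CPM in SJL/J males and females. The defining NK gene Ncr1 had between 0 and 2 counts in every column. Of 7 tested B cell markers 3 rose, and their sum was 49.6 and 48.2 CPM in TCR1640 males and females, against 31.3 and 27.1 CPM in SJL/J males and females. Neutrophil markers summed to 5.35 and 5.62 CPM in TCR1640 males and females, against 122 and 47.8 CPM in SJL/J males and females, and platelet markers to 11.0 and 10.2 CPM in TCR1640 males and females, against 247 and 144 CPM in SJL/J males and females. Of the neutrophil, platelet and mast cell or basophil markers, 4 of 5, 4 of 4 and 4 of 5 fell. The remaining neutrophil marker, Ly6g, rose by 1.34 on the log2 scale. The remaining mast cell or basophil marker, Kit, rose by 1.61. S100a8, Elane and Ppbp had 0 counts in all TCR1640 columns. Of 4 tested macrophage and monocyte markers 1 fell, Lyz2, with 2 and 3 counts in TCR1640 males and females, against 61 and 38 in SJL/J males and females. Csf1r had 436 to 676 counts in every column and did not pass (adjusted p = 0.357, edgeR), and Adgre1 had 0 counts in all columns but 1. Of 5 follicular helper T cell markers 4 rose, namely Cxcr5, Bcl6, Il21 and Tox2, and the list summed to 424 and 471 CPM in TCR1640 males and females, against 245 and 289 CPM in SJL/J males and females, while 4 of the 5 overlap an exon on the other strand. Of 4 tested plasma cell markers Jchain and Sdc1 fell, and the list summed to 40.7 and 31.6 CPM in TCR1640 males and females, against 44.5 CPM in both SJL/J groups. Of 3 tested dendritic cell markers 1 rose, Ccr9, and 2 did not pass. The dendritic cell list summed to 343 and 412 CPM in TCR1640 males and females, against 352 and 367 CPM in SJL/J males and females.

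The order of the members' levels differed between labels when counts were scaled per kilobase of exon. The strand setting is unknown, and the aligner, Bowtie2, does not split reads over introns. The order is therefore one of counts and need not be that of the mRNAs. Under the TCR1640 label Lag3 came first and Ctla4 second, with 164 and 81.1 CPM per kb in males and 127 and 83.3 CPM per kb in females. Under the SJL/J label Ctla4 came first and Lag3 second, with 164 and 92.6 CPM per kb in males and 141 and 86.1 CPM per kb in females. The counting intervals of the 2 genes did not overlap in any group. Il10 came next in both TCR1640 groups, with 30.8 CPM per kb in males and 21.04 CPM per kb in females. Under the SJL/J label Tigit came next, with 24.2 CPM per kb in males and 22.1 CPM per kb in females, and Il10 stood at 14.6 CPM per kb in males and 8.58 CPM per kb in females. In SJL/J females Cd200, Il10 and Pdcd1 were neighbours with overlapping intervals, at 8.60, 8.58 and 7.62 CPM per kb. Havcr2 and Cd244a were last in every group, at 1.00 and 0.642 CPM per kb in TCR1640 males, and their intervals overlapped under the TCR1640 label but not under the SJL/J label. In SJL/J males the intervals of Btla and Havcr2 overlapped, at 2.66 and 2.38 CPM per kb.

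**Figure D3:**
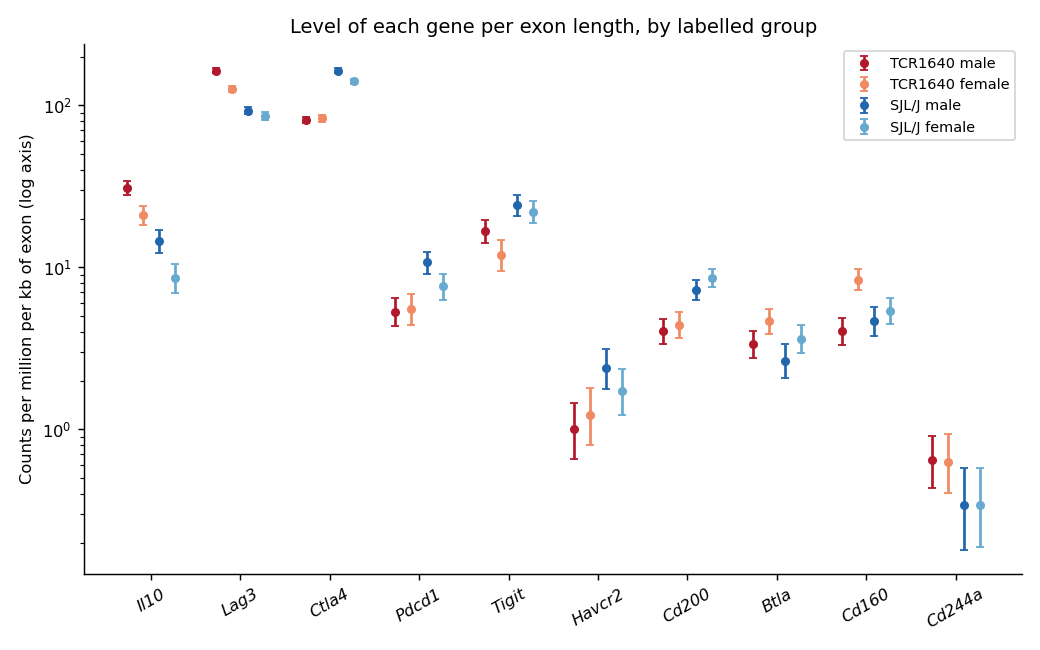
Level of each gene in CPM per kb of exon (vertical log axis) in the 4 labelled groups, with exact 95% counting intervals. Lag3 and Ctla4 exchange the first place between labels, and Havcr2 and Cd244a are lowest in all groups. The intervals of Havcr2 and Btla overlap in SJL/J males.

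Between the sexes fewer of the 10 genes were called than between labels. Over both strain labels Il10 rose and Cd160 fell in males in the edgeR fit, where 1.1% of all tested genes were called, 0.139% higher and 0.962% lower. The log2 fold change of Il10 was 0.63 (SE 0.17, adjusted p = 0.0214, edgeR) and that of Cd160 was -0.66 (SE 0.19, adjusted p = 0.0462, edgeR). Both calls are close to the threshold. That of Il10 was lost without a filter on low counts (0.0527), in DESeq2, which called 0.0406% of all tested genes, and without any of 6 single columns (0.0512 to 0.367), and that of Cd160 in 12 of 15 other settings, among them each left-out column.

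Il10 was higher in males under both labels. The log2 ratio of males to females was 0.55 in TCR1640-labelled libraries (0.31 to 0.80), a 1.46-fold difference just inside the limit, and 0.76 in SJL/J-labelled libraries (0.38 to 1.15), a 1.70-fold difference past it. The difference of these ratios, TCR1640 minus SJL/J, was -0.21 with a counting interval of -0.65 to 0.23, which includes 0. In the TCR1640 label the size rests on which female column is used, since the log2 ratio was 0.30 without female column 1 and 1.00 without female column 2. In both cases males stayed higher. Beside Il10, 3 of 5 neutrophil markers (S100a8, S100a9 and Elane) and 2 of 4 platelet markers (Pf4 and Ppbp) were called higher in males in the edgeR fit of 4 sums. In SJL/J-labelled libraries 4 of each list were past 1.5-fold higher in males, and in TCR1640-labelled libraries 0 of each list. Under the TCR1640 label the neutrophil sums were 5.35 CPM in males and 5.62 CPM in females. The platelet sums there were 11.0 and 10.2 CPM. The part of these cells in the Il10 difference was not tested.

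Cd160, a receptor of cytotoxic lymphocytes, had unlike sex ratios under the 2 labels. Males had less of it than females in TCR1640-labelled libraries, with a log2 ratio of -1.05 (-1.42 to -0.70), a 0.482-fold level. In SJL/J-labelled libraries the log2 ratio was -0.21 (-0.61 to 0.19). The difference of the ratios was -0.85 (-1.37 to -0.33), and Cd160 was the only member whose sex ratio differed between labels by more than 1.5-fold with an interval excluding 0, where 10.1% of all tested genes did, 5.3% lower. Beside it, the summed NK cell markers stood at 31.1 CPM in males and 46.5 CPM in females of the TCR1640 label. Most of this sum was Gzma, at 9.69 and 16.3 CPM, and Klrk1, at 19.7 and 27.4 CPM. The CD8 markers there summed to 284 CPM in males and 272 CPM in females. The part of NK and CD8 T cells in the Cd160 difference was not tested. An exon of Cd160 overlaps 68 bases of Pdzk1 on the other strand, which had 295 to 485 counts per column, and reads of the overlap could be assigned to either gene.

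**Figure D4:**
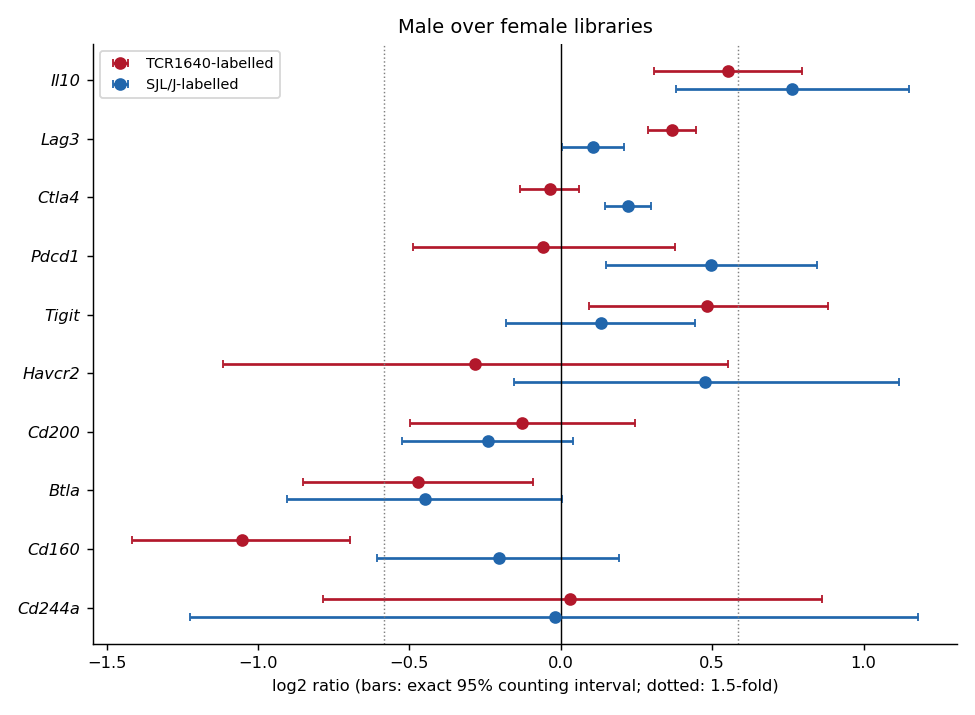
Log2 ratio of male over female summed counts (horizontal axis) in TCR1640-labelled and SJL/J-labelled libraries. Bars are exact 95% counting intervals and dotted lines mark 1.5-fold. Il10 lies to the right of 0 under both labels, and Cd160 lies past 1.5-fold to the left under the TCR1640 label.

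Most receptors stayed within 1.5-fold between the sexes. Past it stood only Cd160 in TCR1640-labelled libraries, where 7.73% of all tested genes were past it (4.88% lower), and only Il10 in SJL/J-labelled libraries, where 6.73% were (2.91% higher). Lag3 was 1.29-fold higher in males under the TCR1640 label (log2 ratio 0.37, 0.29 to 0.45) and 1.08-fold higher under the SJL/J label (0.11, 0.00 to 0.21). Ctla4 showed the opposite order, with a log2 ratio of -0.04 (-0.14 to 0.06) under the TCR1640 label and 0.22 (0.15 to 0.30) under the SJL/J label. Pdcd1 had -0.06 (-0.49 to 0.38) under the TCR1640 label and 0.50 (0.15 to 0.85) under the SJL/J label. Tigit was higher in males under the TCR1640 label (0.48, 0.09 to 0.88) and its interval included 0 under the SJL/J label (0.13, -0.18 to 0.44). Btla was lower in males under the TCR1640 label (-0.47, -0.85 to -0.09) and its interval reached 0 under the SJL/J label (-0.45, -0.90 to 0.00). The intervals of Havcr2, Cd200 and Cd244a included 0 under both labels.

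The fit of the 8 columns also called more for sex. It called 3 of the 10 genes in TCR1640-labelled libraries (Il10, Lag3 and Cd160), where 16.2% of 15793 tested genes were called, and 3 in SJL/J-labelled libraries (Il10, Pdcd1 and Ctla4), where 11.3% were. Averaged over labels it called 5, where 17.5% of tested genes were. The sex difference differed between labels for Lag3, Ctla4 and Cd160 in that fit, where 10.2% of tested genes were called.

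The profiles of the members over the 4 samples were compared as log2 CPM centred on each gene's mean. The closest pair was Havcr2 and Pdcd1, with a Euclidean distance of 0.15, followed by Havcr2 and Ctla4 at 0.24 and Pdcd1 and Ctla4 at 0.26. Havcr2 had only 26 to 51 summed counts per group, and these distances carry no counting interval. Il10 was nearest to Lag3 among the members, at 0.66, and farthest from Cd200, at 2.21. Among 5964 genes with a mean log2 CPM of at least 3 and no exon overlap on the other strand, the 5 profiles closest to that of Il10 were Gm47705 (0.25), Ly6c1 (0.29), Gm43769 (0.29), Timp2 (0.35) and Hid1 (0.35). Gm47705 is a long noncoding RNA, Ly6c1 a surface protein of monocytes and T cell subsets, and Timp2 an inhibitor of metalloproteinases. With 4 points per profile these distances are a description.

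The genes around IL-10 itself moved mostly with it between labels. Of 17 genes for the IL-10 receptor, its signalling and its inducing cytokines, 14 were tested, 9 rose, 1 fell and 4 did not pass, with a median log2 fold change of 0.71 against 0.01 over all genes tested. Of the 17 genes, 8 overlap an exon on the other strand, and the part of this overlap in their values was not tested. Socs3, a feedback inhibitor induced by STAT3, had the largest change of them at 1.74 (SE 0.13, adjusted p = 1.12e-39, edgeR), with 290.2 and 230.2 CPM in TCR1640 males and females, against 77.8 and 77.2 CPM in SJL/J males and females. The IL-6 receptor chains Il6ra and Il6st rose by 1.30 and 1.15 on the log2 scale, and Il10rb, the shared second chain of the IL-10 receptor, by 1.30. Il10rb lost its call in DESeq2, and Il6ra overlaps 242 bases of Gm42809 on the other strand. Over all columns Gm42809 had 795 counts and Il6ra had 1688. Chosen after their values were seen, Il10ra, the ligand-binding chain, rose by 0.81 (adjusted p = 0.000987, edgeR), Tgfb1 fell by 0.57 (8.85e-05) and Stat3 stood at -0.06 (0.757). The call of Il10ra was lost in DESeq2. Between sexes Il6ra was the only gene of the 6 related lists that was called, lower in males at -0.52 (SE 0.14, adjusted p = 0.0383, edgeR), and this call was lost in 11 other settings.

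Transcription factors that govern Il10 and the receptors did not move as a block. Of 22 genes, all tested, 7 rose, 3 fell and 12 did not pass. The largest changes were those of Tcf7, a factor of naive and memory T cells, at 1.99 (SE 0.12, adjusted p = 2.75e-55, edgeR), Gata3, the TH2 factor, at 1.41, Ikzf3, which encodes Aiolos, at 1.14 and Nr4a1, an early response gene to receptor signals, at 0.93. Gata3 overlaps 155 bases of Gm13256 on the other strand. Over all columns Gm13256 had 1270 counts and Gata3 had 538. Tcf7 had 488 and 430.3 CPM in TCR1640 males and females, against 107 and 125 CPM in SJL/J males and females, and it also belongs to the naive T cell markers above. Also chosen after their values were seen, Maf fell by 0.42 (adjusted p = 0.00266, edgeR) and Batf by 0.85 (2.96e-09), while Prdm1 stood at -0.09 (0.716) and Irf4 at -0.12 (0.556). The decrease of Maf was opposite in sign to the change of Il10. The calls of Nr4a1 and Maf were lost in DESeq2.

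Ligands of the receptors were weakly counted. Of 17 genes 10 were tested, 1 rose, 3 fell and 6 did not pass. Tnfrsf14, which encodes HVEM, the ligand of BTLA and CD160, rose by 0.91 on the log2 scale (SE 0.16, adjusted p = 2.17e-07, edgeR), with 38.0 and 32.4 CPM in TCR1640 males and females, against 21.4 and 16.1 CPM in SJL/J males and females. Lgals9, which encodes galectin-9, a ligand of TIM-3, fell by 0.91 (8.36e-08). The MHC class II genes H2-Ab1 and H2-Aa, whose products bind LAG-3, fell by 0.93 and 0.70. For H2-Aa the log2 ratio was -1.32 in males (-1.89 to -0.76) and -0.05 in females (-0.64 to 0.54), and these differed by -1.27 (-2.05 to -0.49). H2-Ab1 lost its call in DESeq2, and H2-Aa in 6 other settings.

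Among 8 activating counterparts 2 rose and 3 fell. Cd27, a costimulator of the TNF receptor family, rose by 0.95 (SE 0.14, adjusted p = 3.77e-10, edgeR), with 85.1 and 79.8 CPM in TCR1640 males and females, against 42.0 and 43.5 CPM in SJL/J males and females. Tnfrsf4, which encodes OX40, fell by 0.57, and Cd28, which shares its ligands with CTLA-4, fell by 0.40, both lost in DESeq2. Tnfrsf18 rose by 0.39, a call lost in 6 other settings, DESeq2 among them, and it overlaps 414 bases of Gm16008 on the other strand. Over all columns Gm16008 had 30006 counts and Tnfrsf18 had 1992.

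Of 14 other inhibitory receptors and ectoenzymes 12 were tested, 5 rose and 3 fell. Klrd1, the CD94 chain of NK and CD8 T cell receptors, rose by 1.81 (SE 0.27, adjusted p = 2.71e-10, edgeR), with 9.59 and 14.7 CPM in TCR1640 males and females, against 3.69 and 3.11 CPM in SJL/J males and females. Cd300a, an inhibitory receptor of myeloid cells and mast cells, fell by 2.62 and had 6 and 4 counts in TCR1640 males and females, against 34 and 22 in SJL/J males and females. Cd96, a relative of TIGIT that also binds CD155, and Cd101, an inhibitory receptor of T cells and myeloid cells, rose by 0.82 and 0.67. For Cd96 the log2 ratio was 0.19 in males (-0.33 to 0.71) and 1.42 in females (0.92 to 1.94), and these differed by -1.23 (-1.93 to -0.54). The calls of Cd300a, Cd96 and Cd101 were lost in DESeq2, and that of Cd96 also without the first SJL/J female column.

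Of 13 intracellular adaptors and phosphatases 12 were tested, 4 rose, 0 fell and 8 did not pass, and 1 gene, Ptpn11, was lower at an unadjusted p under 0.05. Fyn, a Src family kinase, rose by 0.77 (SE 0.14, adjusted p = 3.91e-07, edgeR), and Cblb, a ubiquitin ligase that raises the threshold of T cell activation, by 0.47. Ptpn6, which encodes the phosphatase SHP-1, and Csk, an inhibitory kinase, rose by 0.34 and 0.32. Ptpn6 overlaps 195 bases of Gm20531 on the other strand. Over all columns Gm20531 had 12663 counts and Ptpn6 had 3868. The calls of Ptpn6 and Csk were lost in 6 and 12 other settings, and that of Cblb in DESeq2. The called shares of these lists are to be read beside the 26.5% called among all genes tested.

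**Figure D5:**
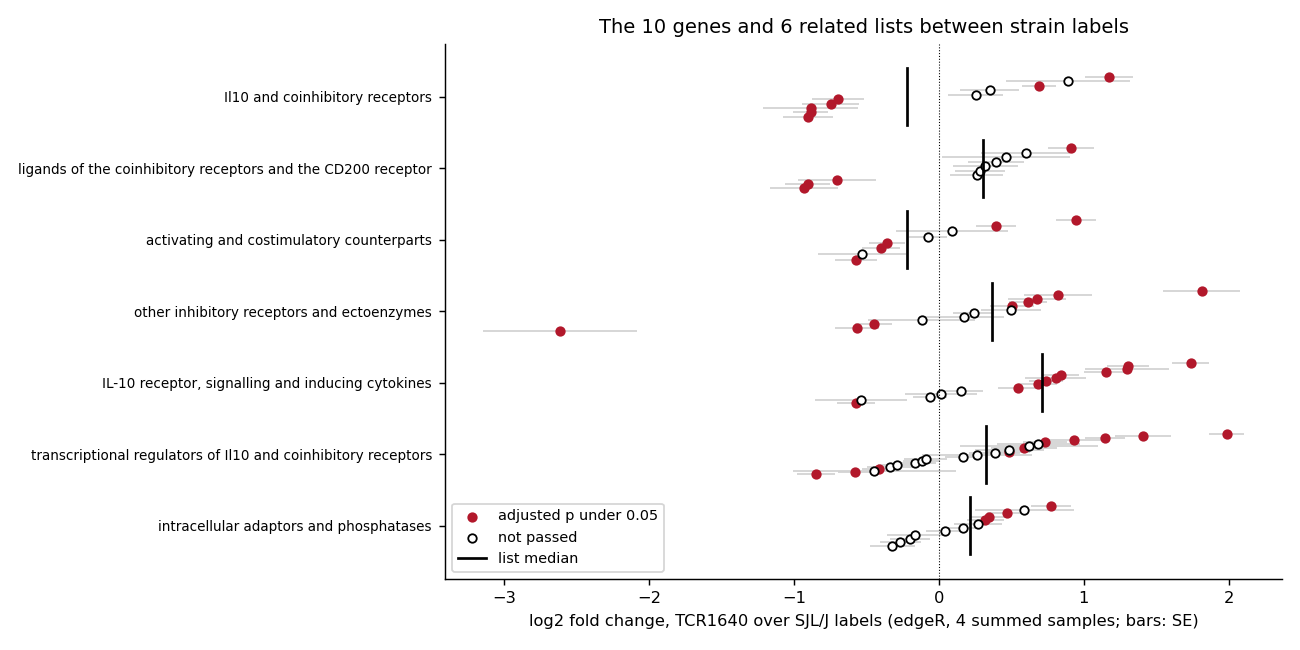
Log2 fold change of TCR1640 over SJL/J labels (horizontal axis, edgeR fit of 4 summed samples, bars are SE) for the 10 genes and 6 related lists. Filled points were called at an adjusted p under 0.05 and black lines are list medians. The list of the IL-10 receptor and its signalling has the highest median, 0.71, and 8 of its 17 genes overlap an exon on the other strand. The 10 genes split to both sides of 0.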

How the data were processed

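RNA from 8 samples was sequenced after preparation with a stranded mRNA kit from 500 ng of RNA, per the labels' protocols. The table the authors deposited gives raw read counts for each Ensembl gene. Per the submitters' processing notes, the mm10 build, Bowtie2, HTSeq and bcl2fastq 2.17 were used. Neither the annotation release nor HTSeq's strand setting is known from the labels or the file. Groups and replicate numbers came from the sample titles. Symbols, exon lengths and strands came from GENCODE M21, in which 147 identifiers were missing.

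The members, the lists and the tests were chosen with earlier results of these data known. The 2 columns of a group were summed, so n = 1 per group. Log2 ratios of summed counts used TMM-scaled library sizes (edgeR 4.0.16, R 4.3.3) with exact Clopper-Pearson 95% intervals, which cover counting error only. A difference of 2 ratios has a Wald interval from the 4 counts. The limit of size was 1.5-fold with an interval that excludes equality. For averages over sex or label, an additive edgeR quasi-likelihood model was fitted to the 4 sums after filterByExpr, with Benjamini-Hochberg adjustment over 17261 genes, a threshold of 0.05, two-sided tests and 1 residual degree of freedom. The common coefficient of variation was 9.78%, and an SE is the log2 fold change over the square root of F. The script was tested on simulated data. Named genes were all 10 members, up to 4 called genes of each related list with the largest change between labels, all called for sex, and the 5 profiles nearest to Il10. Other genes named are said to be chosen after their values were seen.

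Precision is set by column totals of 3765291 to 5116467 counts. The strand setting is not given, and which one was used was not tested. Where a noncoding feature overlaps a coding gene on the other strand, in 985 pairs with at least 200 counts each, the noncoding one had more counts in 75.7%, and Tsix had 3553 to 3935 counts in female columns against 668 to 784 for Xist. Under a setting opposite to the kit's, counts of genes with no exon on the other strand, 9 of the 10 members, would come from off-strand reads only. Bowtie2 does not split reads over introns. DESeq2 1.42.0, other scalings and filters, an edgeR fit of the 8 columns with and without the replicate number, and leaving out each column were alternatives.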

Additional observations from a re-analysis of the deposited data

Results flagged for a closer look

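In an edgeR quasi-likelihood fit of the 8 columns as separate libraries, the male over female difference differed between the strain labels for 3 of the 10 genes, with Benjamini-Hochberg adjusted p-values under 0.05. These values compare libraries, since the 2 columns of a group were close to repeat counts of 1 sample. For Cd160 the log2 ratio in TCR1640-labelled libraries minus that in SJL/J-labelled libraries was -0.86 (adjusted p = 0.0221, edgeR), and both TCR1640 female columns stood above all other columns. For Ctla4 the value was -0.27 (adjusted p = 0.000408, edgeR), with males above females under the SJL/J label and at about the same level under the TCR1640 label. For Lag3 it was 0.25 (adjusted p = 0.00379, edgeR), with a larger excess of males under the TCR1640 label. On summed counts the difference for Lag3 was 0.26 (counting interval 0.13 to 0.39) and that for Ctla4 was -0.26 (-0.38 to -0.14), both within 1.5-fold.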

How the results depend on the processing

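Between labels, 7 of the 10 genes were called in the edgeR fit of 4 sums, and 6 or 7 without any 1 column. DESeq2 called 4 of them, and the edgeR fit of the 8 columns, with and without the replicate number as a block, 9, with Btla and Cd244a added. With a fold limit of 2, females had 1 gene past the limit instead of 5. Counts within males stayed within 1.5 times under every setting run.

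Sex results depend on the setting. Of 2 calls over both labels, RLE and upper-quartile factors left 1 each and leaving out 1 column left 0 to 1. No filter on low counts left 0 (4 members had an unadjusted p under 0.05) and DESeq2 left 0 (1 had). Leaving out a column gave 1 to 2 genes past the limit in TCR1640-labelled libraries and 1 to 3 in SJL/J-labelled libraries, against 1 in each. A fold limit of 2 left 0 in SJL/J-labelled libraries and 0 for the difference between labels, for which total counts gave 2 and leaving out a column 0 to 3, against 1. The cause was not tested.

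The edgeR fit of the 8 columns called 3 genes for sex in TCR1640-labelled libraries, 3 in SJL/J-labelled libraries, 3 for the difference and 5 over both labels. With the replicate number as a block these counts were again 3, 3, 3 and 5. Same-numbered columns did not deviate together (correlations between -0.02 and 0.03), so the number does not pair samples. The calls in the related lists were recomputed under the same settings, a check chosen after seeing the data. There, DESeq2 called 1410 genes between labels over all genes, against 4572, and 7 between sexes, against 190, while the fit of the 8 columns called 7821 between labels and 2759 between sexes. For sex, 108 genes were called with upper-quartile factors, 118 without a filter and 8 to 143 without any 1 column. No member changed direction where it was called. Depth limits Havcr2 and Cd244a most.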
